A study of Saccharomyces cerevisiae with 12 samples.

Results

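Budding yeast carrying a galactose-inducible YOX1 plasmid were compared after 4 h and after 2 h in galactose and hydroxyurea (HU), to describe what still changed late in the response while YOX1 stayed induced. The comparison rests on 4 of the 12 RNA-seq libraries of the series, 2 from YOX1 vector cells at 4 h and 2 from the same kind of cells at 2 h. Of the 7126 genes quantified, 6821 were compared. They were chosen as genes with a completed estimate in all 4 libraries, which removed 43, and with a mean of at least 1 FPKM (fragments per kilobase of transcript per 1e6 mapped fragments) over the 4, which removed 262. The cells were wild-type BY4741, a laboratory MATa strain auxotrophic for histidine, leucine, methionine and uracil, with pBY011-YOX1, a plasmid in which the GAL1-10 promoter drives YOX1 and URA3 allows growth without uracil. They grew in raffinose medium lacking uracil and were sampled 4 h and 2 h after the addition of galactose and of HU at 200 mM. Cells with the empty pBY011 vector, treated in the same way, were set beside them. Galactose and HU were added together, so their effects, the induced YOX1 and the age of the culture cannot be told apart in a comparison of times.

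Yox1 carries a homeodomain and represses M/G1 and G2/M genes at promoters that Mcm1 also binds, and Yhp1 is its paralog. HU inhibits ribonucleotide reductase, lowers the supply of deoxyribonucleotides and holds cells in S phase with an active replication checkpoint. Galactose relieves Gal80 repression of the activator Gal4, which then drives the GAL genes and any plasmid gene behind a GAL promoter.

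The libraries differed in depth, and both at 4 h were shallower than both at 2 h. The intervals of the estimates implied a depth, in units of 1e6 fragments, of 9.66 and 11.7 at 4 h and 13.1 and 18.1 at 2 h. Pearson's r of log2 values across genes, which are not independent replicates, was 0.960 to 0.969 between libraries of the same time and 0.941 to 0.961 between times. LEU2, which the strain lacks, was at 0 in all 4 libraries, and MET17 was at most 0.122 FPKM. HIS3, the gene behind the histidine requirement, was read at 81.2 and 93.99 FPKM at 4 h and 59.2 and 71.0 FPKM at 2 h, so its level does not mark the strain here. The summed FPKM of 6 MATa markers was 856 to 1074 at 4 h and 832 to 1050 at 2 h, and that of 4 MATalpha markers was 40.3 to 41.1 at 4 h and 39.5 to 44.5 at 2 h. Meiotic markers summed to 30.1 to 31.6 at 4 h and 30.3 to 30.9 at 2 h. The study describes the replicates as independent biological ones. In RNA from whole cultures, fewer cells of a type and less RNA per cell cannot be told apart.

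YOX1 itself (YML027W, chromosome XIII, 221406 to 222563) stood at 2599 and 2458 FPKM at 4 h, against 3862 and 3312 FPKM at 2 h. The values at 4 h were the lower ones without overlap, and all of them were far above the 91.3 and 90.9 FPKM of the same cells before galactose. The log2 change was -0.41 (SE 0.10), which was called (limma, Benjamini-Hochberg adjusted p = 0.0408). The call held without replicate 2 of the 2 h cells and was lost without any other of the 4 libraries and with the spread of the compared libraries alone (adjusted p = 0.114), with the adjusted p over the alternatives reaching 0.213. With the control vector YOX1 had 40.8 and 40.7 FPKM at 4 h and 30.9 and 37.5 FPKM at 2 h, a log2 change of 0.35 that was not called (adjusted p = 0.0530, limma). The difference between the vectors was not called either (adjusted p = 0.226, limma).

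YHP1 (YDR451C, chromosome IV, 1361120 to 1362181), which encodes the paralogous repressor, had 5.71 and 8.16 FPKM at 4 h, against 15.1 and 20.8 FPKM at 2 h. Both late libraries were below both early ones, and YHP1 fell by 1.18 on the log2 scale (SE 0.18, adjusted p = 0.00584, limma). With a spread taken from the 4 compared libraries alone the call was lost (adjusted p = 0.0643). In control vector cells YHP1 had 31.9 and 35.3 FPKM at 4 h and 36.3 and 45.0 FPKM at 2 h, which was not called, and the difference between the vectors was not called (adjusted p = 0.417, limma). GAL1 (galactokinase) had 5317 and 4706 FPKM at 4 h and 5550 and 5235 FPKM at 2 h, and GAL10 4060 and 3840 FPKM at 4 h and 4458 and 4378 FPKM at 2 h. Neither was called, with log2 changes of -0.02 and -0.08, and the sign of the GAL1 change turned with the library left out. URA3, the plasmid marker, had 283 and 323 FPKM at 4 h and 325 and 309 FPKM at 2 h and was not called, with a log2 change of 0.02 that turned negative without scaling. HUG1, a small inhibitor of ribonucleotide reductase that replication stress induces, had 5416 and 6522 FPKM at 4 h and 3531 and 4166 FPKM at 2 h. Its log2 change of 0.72 did not pass the test (adjusted p = 0.0966, limma), although the libraries did not overlap. RNR3, a damage-inducible subunit of the reductase, had 49.4 and 56.7 FPKM at 4 h and 45.6 and 54.4 FPKM at 2 h and was not called. In control vector cells its log2 change of 0.43 was called (adjusted p = 0.0178, limma), but the difference between the vectors was not (adjusted p = 0.731, limma).

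Over all genes, 765 of 6821 were called between the times at an adjusted p under 0.05, that is 11.2%. Of these, 408 were higher at 4 h (5.98% of the genes tested) and 357 were lower (5.23%), while 1834 genes had an unadjusted p under 0.05. The counts of the gene lists below are read beside these shares. Changes were small, with a median log2 change of 0.48 among the higher genes and -0.35 among the lower ones. A change of at least 2-fold was called upward in 45 genes (0.66%) and downward in 31 (0.454%). Both counts include transfer RNA genes with the same value at several copies, such as SUP17 upward and tQ(UUG)C downward. These had at most 0.70 implied fragments in any library. All 765 called genes had separate libraries at the 2 times, as did 61.9% of all genes tested. The balance of directions depended on the scaling: 53.3% of the calls were higher with the median-ratio scaling used here, 41.2% with upper quartile scaling and 26.2% with FPKM as deposited, which moved the median change of all genes to -0.080. When 1 of the 4 libraries was left out, between 271 and 332 genes were called, and 200 of the 765 were called whichever library was left out, 123 of them higher and 77 lower.

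**Figure D1:**
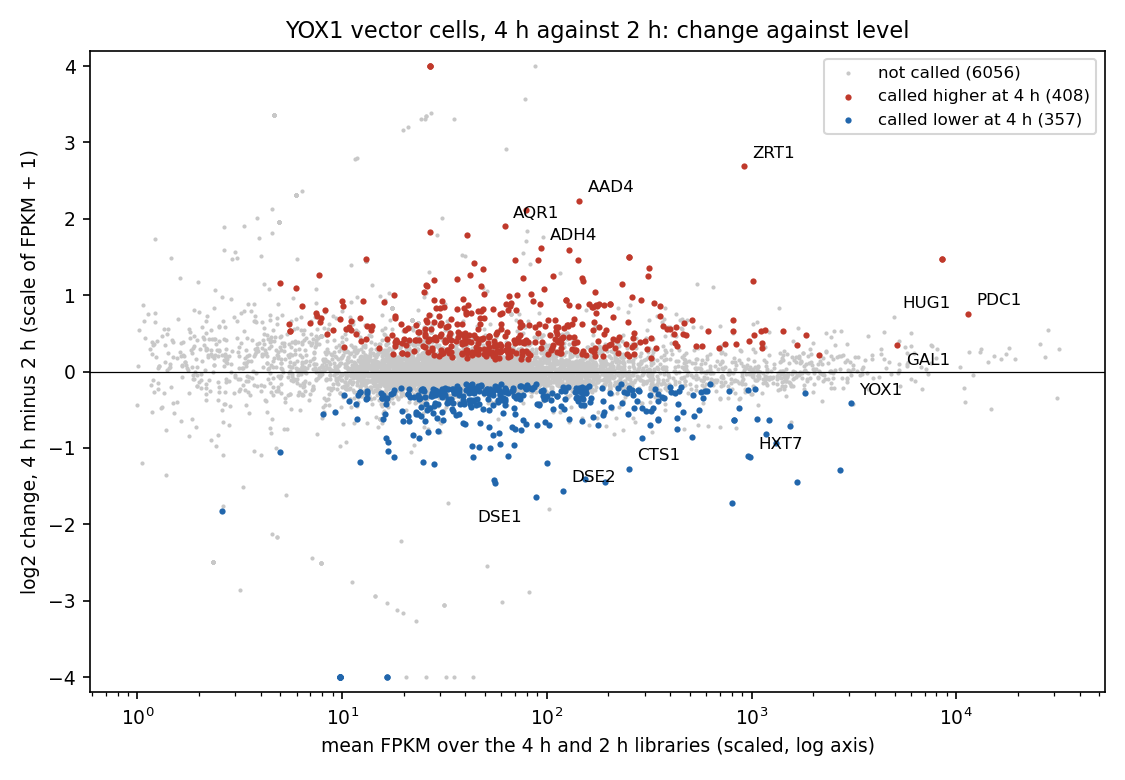
Log2 change between 4 h and 2 h in YOX1 vector cells (y axis, scale of FPKM + 1) against mean FPKM over the 4 libraries (x axis, log scale) for 6821 genes, with called genes in colour. ZRT1 stands highest and DSE1 lowest among the labelled genes, and 18 genes with a change beyond 4 on the log2 scale are drawn at the edge.

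The largest increase among the named genes was in a zinc transporter, and genes of the zinc regulon made up 3 of the 12 largest. In yeast the activator Zap1 turns on zinc transporters when zinc runs low, and it does so through an 11-base element in their promoters. The list of 6 genes for the Zap1 regulon was chosen with earlier results of these data known. Of the 6 genes 5 were called higher at 4 h and none lower, against 5.98% of all genes called higher. Each of the 5 rose at least 2-fold. The median log2 change of the 6 was 1.48, beside 0.004 over all genes tested, and the 5 calls were made whichever library was left out.

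ZRT1 (YGL255W, chromosome VII, 20978 to 22108), the high-affinity zinc transporter of the plasma membrane, had 1663 and 1398 FPKM at 4 h, against 178 and 351 FPKM at 2 h. Even the lower late library was several-fold above the higher early one, although the early libraries also lay apart. The log2 change was 2.69 (SE 0.26, adjusted p = 0.00083, limma), following a log2 change of 3.10 between 0 h and 2 h. ZAP1, which encodes the activator, had 69.5 and 66.2 FPKM at 4 h and 24.3 and 31.6 FPKM at 2 h, a log2 change of 1.35 (SE 0.11, adjusted p = 0.000315). ZRT3, which releases zinc from the vacuole, had 204 and 200 FPKM at 4 h and 85.2 and 97.6 FPKM at 2 h, a log2 change of 1.22 (adjusted p = 8.91e-05). ZPS1, a cell wall protein made in low zinc, had 40.8 and 41.5 FPKM at 4 h and 10.5 and 12.7 FPKM at 2 h, a log2 change of 1.83 (adjusted p = 2.9e-05). In all 3 of these genes the replicates of a time lay close together beside the distance between the times. ADH4, an alcohol dehydrogenase, had 133 and 143 FPKM at 4 h and 47.1 and 47.2 FPKM at 2 h, a log2 change of 1.62 with the smallest SE of the group, 0.05 (adjusted p = 9.6e-06). The remaining listed gene, ZRT2, the low-affinity transporter, had 82.7 and 87.4 FPKM at 4 h and 104 and 99.3 FPKM at 2 h, with a log2 change of -0.17 that was not called. In the control vector cells 5 of the 6 genes were also called higher, with a median log2 change of 1.26. There 9.79% of all genes were called higher.

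Windows of 500 bases before the start codon were searched on both strands for the Zap1 element in either of its common forms, an inverted repeat around any base, a motif added after the values had been seen. Of 5885 genes with a window, 17 held it, which is 0.289%. It was in 8 of 387 called higher (2.07%), in 4 of the 37 called higher by at least 2-fold (10.8%) and in none of the 331 called lower. The 4 of the 2-fold set were the listed genes ZRT1, ZPS1, ZAP1 and ZRT3. Their rise was known when the motif was added, so these shares are not independent of the list. Besides the 4 listed genes that rose and held it, RTC4 rose (log2 change 0.93), as did ZRG17, a zinc transporter of the endoplasmic reticulum (0.59), LOG1 (0.41) and MRX15 (0.40, a call lost whichever library was left out). LOG1 shares its upstream region with ZAP1, and MRX15 shares its own with ZRG17, so these pairs hold the same copy of the element. ADH4 held no match in its window, and ZRT2, which was not called, held 2. The genes with a match that were not called had log2 changes from -0.40 (YPL264C) to 0.10 (IZH1), with TEX1, the neighbour of RTC4, at 0.01. Sites are shown for the listed genes that held a match, because 5 of the 6 listed genes were called higher. ZRT2, whose sites are included, was not called. The sites are read on the strand of the gene from RefSeq (R64, the sacCer3 build), with the element in capitals.
ZRT1, chrVII:20765-20793: acatatttgACCTTGAAGGTcatggaaag
ZRT1, chrVII:20650-20678: accaaagatACCCTCAAGGTtctcatctg
ZPS1, chrXV:34335-34363: agggttaggACCCTGAAGGTtttttgtag
ZPS1, chrXV:34320-34348: ttataattgACCTTCAGGGTtaggaccct
ZAP1, chrX:333198-333226: cagtcatctACCCTAAAGGTcatgatgaa
ZRT3, chrXI:118629-118657: gtgacaacaACCTTAAGGGTaatggactt
ZRT2, chrXII:404354-404382: agggacataACCCTAAAGGTtatatgcga
ZRT2, chrXII:404305-404333: tttttcacaACCTTTAGGGTacattgccc
The elements began 204 and 319 bases before the start codon of ZRT1, 314 and 329 before ZPS1, 144 before ZAP1, 155 before ZRT3 and 311 and 262 before ZRT2. A match is a description of the letters and not of binding.

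The other increases of the top 12 were led by AAD4 (chromosome IV, 17577 to 18566), a putative aryl-alcohol dehydrogenase, with 257 and 206 FPKM at 4 h and 55.5 and 46.9 FPKM at 2 h. It rose by 2.24 on the log2 scale (SE 0.17, adjusted p = 0.000315, limma). Its relatives AAD16 (205 and 167 FPKM at 4 h, 66.3 and 63.4 FPKM at 2 h) and AAD6 (152 and 107 FPKM at 4 h, 48.5 and 48.7 FPKM at 2 h), which lie next to each other on chromosome VI, rose by 1.59 and 1.46. Of the 7 members of the family 6 were called higher, beside 5.98% of all genes, and none lower. The members were put together after the values were seen, and their median log2 change was 1.21. These genes resemble each other in sequence, so reads may have been divided among them and the single values are uncertain. AQR1, a plasma membrane exporter of drugs and acids, had 91.4 and 100.2 FPKM at 4 h and 23.9 and 29.3 FPKM at 2 h, a log2 change of 1.90 (SE 0.13, adjusted p = 0.000203). PRM7 and BSC1, neighbours on chromosome IV, rose by 1.78 and 2.12, BSC1 with 139 and 113 FPKM at 4 h and 30.0 and 29.8 FPKM at 2 h. GTT2, a glutathione S-transferase, rose by 1.46, EFM6, a methyltransferase of elongation factor 1A, by 1.47 and ICY2 by 1.46, each with libraries that did not overlap.

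**Figure D2:**
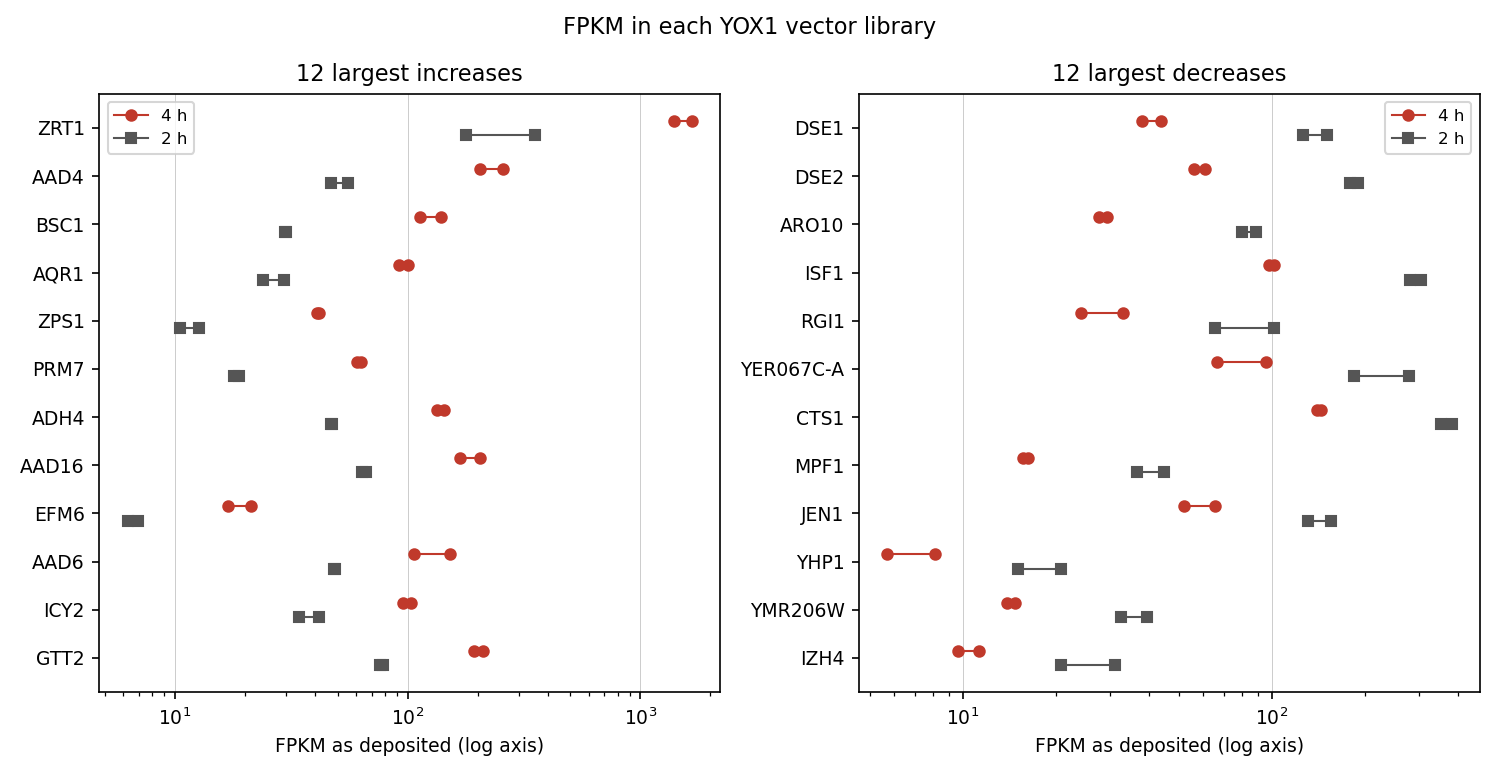
Deposited FPKM (x axis, log scale) of the 12 largest increases and the 12 largest decreases in each library of YOX1 vector cells, with 4 h as circles above 2 h as squares and a line joining the replicates. The times separate in all 24 genes; the widest pair of replicates is that of ZRT1 at 2 h, 178 and 351 FPKM.

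The decreases among the named genes began with DSE1 and DSE2, and CTS1 was also among the 12 largest. A list of 22 genes for cell wall proteins and glucan synthesis had 1 called in each direction. Over all genes 5.98% were called higher and 5.23% lower. The list had a median log2 change of 0.02 that turned negative under both other scalings. DSE1 (YER124C, chromosome V, 407342 to 409063), made in daughter cells, had 37.9 and 43.9 FPKM at 4 h, against 126 and 151 FPKM at 2 h. The higher late value was far below the lower early one, and DSE1 fell by 1.65 on the log2 scale (SE 0.11, adjusted p = 0.0002, limma). DSE2 (chromosome VIII, 385510 to 386487), a secreted daughter-specific protein, had 60.9 and 55.9 FPKM at 4 h and 179 and 190 FPKM at 2 h and fell by 1.56. CTS1, the endochitinase that cuts the septum, had 140 and 144 FPKM at 4 h and 352 and 382 FPKM at 2 h and fell by 1.27, and a short gene on the opposite strand shares its locus. For DSE1, DSE2 and CTS1 the fall continued one that began earlier: the log2 changes between 0 h and 2 h were -0.67, -0.97 and -0.71. In control vector cells the log2 changes between 4 h and 2 h were -1.55 for DSE1, -1.36 for DSE2 and -1.24 for CTS1.

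In the windows of 500 bases before the start codon, also searched on both strands for other motifs, the forkhead motif GTAAACA was in 15.4% of genes called lower, 8.53% of those called higher and 10.3% of all. The stress element AGGGG was in 41.1% of genes called higher, 38.7% of those called lower and 34.3% of all, and the Gcn4 motif TGACTCA in 6.72% of genes called higher, 2.11% of those called lower and 3.99% of all. The motif TAATTA, a homeodomain core, was in 21.2% of genes called higher, 22.7% of those called lower and 25.0% of all. A motif for Mcm1 was in 58.1% of genes called higher, 47.4% of those called lower and 49.0% of all. The motif named PAC was in 14.2% of genes called higher, 5.74% of those called lower and 9.63% of all. The motifs given here are only some of those searched.

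Genes for the use of sugars other than galactose made up a further group of decreases. Of 16 genes for hexose transport and glucose sensing 8 were called lower and 1 higher, against 5.23% and 5.98% of all genes. Their median log2 change was -0.31. HXT7 and HXT6, high-affinity glucose transporters with nearly identical sequences, had 577 and 626 and 572 and 607 FPKM at 4 h, against 1425 and 1352 and 1391 and 1298 FPKM at 2 h. They fell by 1.12 and 1.10 (SE 0.06 each), and because reads can belong to either, they are best read as a pair. HXK1 (hexokinase) fell by 0.94 and SUC2, the secreted invertase, by 0.87, with 190 and 211 FPKM at 4 h and 400 and 379 FPKM at 2 h. The 1 higher gene was HXT1, a low-affinity transporter, with 12.6 and 11.97 FPKM at 4 h and 8.34 and 8.71 FPKM at 2 h, a call lost whichever library was left out. Of 6 maltose genes, a set put together after the values were seen, 5 were called lower, MAL31, the permease, with the largest change (log2 -0.83). JEN1, a lactate and pyruvate permease, had 51.9 and 65.3 FPKM at 4 h and 155 and 131 FPKM at 2 h and fell by 1.19, a call lost without replicate 1 of either time. GAL2, the galactose permease, had 1178 and 1092 FPKM at 4 h and 2035 and 1926 FPKM at 2 h and fell by 0.72, and GAL3, which senses galactose, fell by 0.65. They were the only calls among 9 galactose genes, and GAL2 was not called without replicate 2 of the 4 h cells or replicate 1 of the 2 h cells, with an adjusted p up to 0.0689.

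Stores and respiration followed, to be read beside the 5.23% of all genes that were called lower. Of 17 genes for glycogen and trehalose 6 were called lower and 1 higher, and the largest change was in GAC1, a glycogen subunit of the phosphatase Glc7, with 33.0 and 34.3 FPKM at 4 h and 79.4 and 65.6 FPKM at 2 h (log2 change -0.99, adjusted p = 0.00105, limma). The glycogen synthases GSY1 and GSY2 and the branching enzyme GLC3 were called at log2 changes of -0.67, -0.45 and -0.66, and each call was lost without 1 or more of the libraries, at adjusted p values up to 0.192, 0.0759 and 0.144. The list as a whole had 2 to 6 calls when 1 library was left out. In the nuclear genes of the respiratory chain and ATP synthase 6 of 32 were called lower and none higher, led by COR1 of the cytochrome bc1 complex, with 222 and 249 FPKM at 4 h and 386 and 429 FPKM at 2 h (log2 change -0.70). COR1 was the only 1 of the 6 that was called whichever library was left out, and none of 9 genes of the mitochondrial genome was called lower. RGI1, involved in energy metabolism under respiration, fell by 1.41, but it overlaps YER067C-A, which fell by 1.40, and their reads cannot be told apart. ISF1 had 98.2 and 101 FPKM at 4 h and 304 and 279 FPKM at 2 h and fell by 1.45. The remaining genes of the 12 largest decreases were MPF1, YMR206W and IZH4, which fell by 1.21, 1.18 and 1.12, and IZH4, with 9.66 and 11.3 FPKM at 4 h and 20.8 and 31.0 FPKM at 2 h, was not called with a spread from the compared libraries alone or without replicate 1 of the 4 h cells or replicate 2 of the 2 h cells.

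Genes of lipid synthesis were among those called lower, which were 5.23% of all genes. Of 23 ergosterol genes 5 were called lower and 1 higher, ERG6 most (log2 change -0.51, with 233 and 256 FPKM at 4 h and 359 and 380 FPKM at 2 h). The 6 ergosterol calls became 1 or 2 when 1 library was left out and 11 without scaling. Of 9 genes for making and activating fatty acids, a set put together after the values were seen, 7 were called lower and none higher, with a median log2 change of -0.53. FAS1 and FAS2, the subunits of fatty acid synthase, had 393 and 420 FPKM and 353 and 384 FPKM at 4 h, against 626 and 665 FPKM and 555 and 577 FPKM at 2 h. ARO10 and ARO9, which break down aromatic amino acids, fell by 1.45 and 1.12. ARO10, the decarboxylase, had 27.6 and 29.2 FPKM at 4 h and 80.1 and 88.9 FPKM at 2 h.

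**Figure D3:**
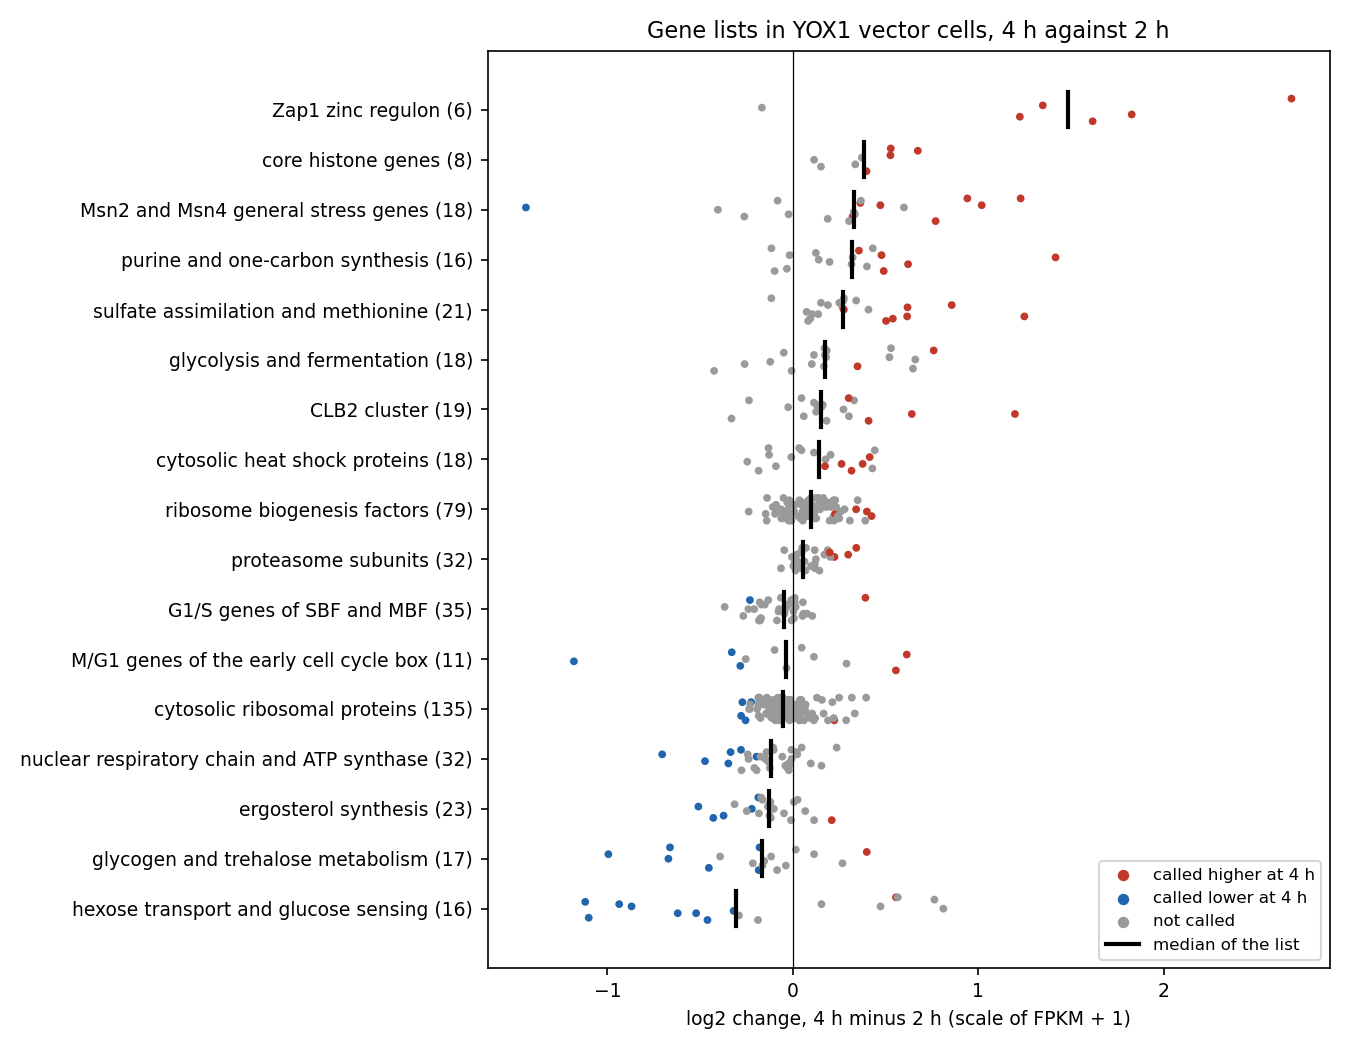
Log2 change between 4 h and 2 h in YOX1 vector cells (x axis) for the tested members of 17 gene lists, with the number of members in brackets, called genes in colour and a black bar at the median of each list. The zinc list lies to the right with a median of 1.48 and the hexose transport list to the left with a median of -0.31, while 135 ribosomal protein genes centre on -0.05.

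The general stress genes of Msn2 and Msn4, paired activators that many stresses turn on, were mixed. Of 18 listed 7 were called higher and 1 lower, against 5.98% and 5.23% of all genes, with a median log2 change of 0.33. CTT1, the cytosolic catalase, had 99.1 and 119 FPKM at 4 h and 55.2 and 57.7 FPKM at 2 h (log2 change 1.02), and GND2, an enzyme of the pentose phosphate pathway, had 97.4 and 113 FPKM at 4 h and 42.7 and 51.5 FPKM at 2 h (1.23). TMA10 went the other way, with 783 and 970 FPKM at 4 h and 2708 and 2329 FPKM at 2 h, and fell by 1.44. The list gave 5 to 9 calls when 1 library was left out. Among 18 cytosolic heat shock genes 5 were called higher, the largest change of these being 0.41 on the log2 scale in SSE2, and 1 to 3 were called when 1 library was left out.

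Metabolic genes that rose included methionine, purine and glycerol synthesis, beside 5.98% of all genes called higher. Of 21 genes for sulfate assimilation and methionine 7 were called higher and none lower, with 20 of 21 changes positive, and 3 to 5 were called when 1 library was left out. SAM1, which makes S-adenosylmethionine, had 446 and 409 FPKM at 4 h and 200 and 181 FPKM at 2 h (log2 change 1.25, SE 0.13, adjusted p = 0.00115, limma), and MET6, methionine synthase, 463 and 428 FPKM at 4 h and 277 and 245 FPKM at 2 h (0.86). Of 16 purine and one-carbon genes 5 were called higher, and between 1 and 3 when 1 library was left out. ADE17, of the last steps to inosine monophosphate, had 60.1 and 65.7 FPKM at 4 h and 23.3 and 25.5 FPKM at 2 h (log2 change 1.42, SE 0.13, adjusted p = 0.00077). The control vector cells had 23.7 and 22.01 FPKM of ADE17 at 4 h and 26.9 and 20.5 FPKM at 2 h, but the difference between the vectors, 1.36 on the log2 scale, did not pass the test (adjusted p = 0.0921, limma). HIS4, of histidine synthesis, rose by 0.80 and LEU1, of leucine synthesis, by 0.63, in a list of 32 amino acid genes under Gcn4 with 5 called higher and 3 lower, and 3 or 4 called in all when 1 library was left out. Of 4 glycerol genes, put together after the values were seen, RHR2, GPD1 and GPD2 were called higher, RHR2, the phosphatase, with 1357 and 1369 FPKM at 4 h and 560 and 726 FPKM at 2 h (log2 change 1.18). PDC1, pyruvate decarboxylase, had 13414 and 14417 FPKM at 4 h and 8469 and 8980 FPKM at 2 h (0.76), a call lost whichever library was left out (adjusted p up to 0.111).

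Aldehyde dehydrogenases split by gene. ALD6, the main cytosolic enzyme and one of 8 genes that the study selected as candidate Yox1 targets, had 271 and 259 FPKM at 4 h and 435 and 436 FPKM at 2 h and fell by 0.63 (SE 0.07, adjusted p = 0.00162, limma). ALD3, a cytosolic enzyme of the stress response, had 46.1 and 58.1 FPKM at 4 h and 27.0 and 37.4 FPKM at 2 h, a log2 change of 0.77 that was not called without replicate 2 of the 4 h cells or replicate 1 of the 2 h cells (adjusted p up to 0.0968). ALD6 was the only 1 of the 8 candidate targets that was called, beside 5.23% of all genes called lower. The 8 had a median log2 change of -0.11. The study chose those genes with data of this series in view, so their direction is not independent evidence. In control vector cells ALD6 changed by -0.20, which was not called, and the difference between the vectors did not pass the test (adjusted p = 0.397, limma).

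Among the cell cycle lists given here the core histone genes moved most, with a median log2 change of 0.39, and the other medians were smaller in size. Of all genes tested 5.98% were called higher and 5.23% lower. Of 11 M/G1 genes that carry the early cell cycle box, a class that Yox1 and Yhp1 repress through Mcm1, 2 were called higher and 3 lower, with a median log2 change of -0.03. Leaving out 1 library gave 3 or 4 calls. CLN3, a G1 cyclin, had 91.5 and 87.1 FPKM at 4 h and 60.4 and 62.8 FPKM at 2 h (log2 change 0.61), and CDC6, which loads the replicative helicase, 51.4 and 54.9 FPKM at 4 h and 36.2 and 39.9 FPKM at 2 h (0.56). YHP1 and SWI4, which encodes a subunit of the G1/S activator SBF, were on the lower side, SWI4 with a log2 change of -0.33 that was not called whichever library was left out (adjusted p up to 0.115). With the control vector 4 of the 11 were called higher and none lower, with a median of 0.31. Over all genes 9.79% were called higher and 8.61% lower with the control vector. The difference between the vectors was called for none of the 11.

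Of 19 genes of the CLB2 cluster, which are transcribed from G2 to mitosis under Mcm1 and Fkh2, 4 were called higher and none lower. Their median log2 change was 0.15, and 5.98% of all genes were called higher. ASE1, which bundles spindle microtubules, made the largest change, with 37.7 and 39.3 FPKM at 4 h and 16.5 and 18.0 FPKM at 2 h (log2 change 1.20, adjusted p = 8.91e-05). The list gave 1 to 5 calls when 1 library was left out. Among control vector cells 15 of the 19 were called higher, with a median of 0.47, and the difference between the vectors was called for none of them. Over all genes 9.79% were called higher with the control vector. Of 35 G1/S genes 1 was called in each direction, PCL1 higher and POL1 lower, and neither call was made with any library left out. All 8 core histone genes changed upward and 4 were called, HTB1 most, with 905 and 1036 FPKM at 4 h and 660 and 629 FPKM at 2 h (log2 change 0.67). HTB1 and HHF2 were called whichever library was left out, and HHT2 and HHF1 were not. Targets of the replication checkpoint had 3 calls of 14, all higher and under 0.35 on the log2 scale, none of which held with every library left out. With the control vector 7 of the 14 were called higher and none lower, with a median of 0.29, beside 0.02 with the YOX1 vector. The difference between the vectors was called for none of the 14.

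Of 135 cytosolic ribosomal protein genes 1 was called higher and 4 lower, none of the 5 by more than 0.28 on the log2 scale, which is below the share called over all genes in either direction. Ribosome biogenesis had 4 of 79 called higher with a median of 0.10, beside 5.98% of all genes called higher. With the control vector 37 of 79 were called higher with a median of 0.24, beside 9.79% of all genes called higher. The difference between the vectors was called for none of the 79. When 1 library was left out, 0 or 1 of the ribosomal protein genes and 0 to 3 of the biogenesis genes were called. Of 32 proteasome genes 4 were called higher, a larger share than the 5.98% of all genes, but 0 or 1 were called when 1 library was left out. RNA polymerases I and III had 1 called higher and 2 lower of 20, and P-bodies and mRNA decay 2 lower of 15, again larger shares than the 11.2% called in either direction and the 5.23% called lower over all genes, and none of these was called when 1 library was left out. Autophagy (1 higher of 35), mitochondrial ribosomes (1 lower of 56), the unfolded protein response (0 of 9) and arginine metabolism (0 of 11) had smaller shares called than all genes. The a-specific mating genes had no call among 7 and the pheromone response 2 higher of 17. In the iron regulon of Aft1 3 genes were called higher and 1 lower of 15, with 1 or 2 called when 1 library was left out, and in the phosphate regulon 1 was called higher of 13. That gene was PHO84, the high-affinity phosphate transporter, with a log2 change of 0.41, a call kept in 1 of the 4 cases with a library left out.

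A few very abundant or repeated genes also moved. The metallothionein copies CUP1-1 and CUP1-2 on chromosome VIII, which are identical in sequence and had identical values, stood at 11154 and 13172 FPKM at 4 h, against 4659 and 4613 FPKM at 2 h. They are one measurement, with a log2 change of 1.47 (SE 0.12, adjusted p = 0.000326, limma). Of the 33 retrotransposon genes tested 15 were called higher, beside 5.98% of all genes, and none lower. The set was put together after the values were seen, and its log2 changes reached 0.89. The sequences of these genes repeat, and reads may have been divided among copies. Of the 28 called genes under 300 bases, 14 rested on at most 10 implied fragments in any library. They included transfer RNA genes with the same value at every copy, so their changes are not read as expression.

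Cells with the control vector gave the nearest comparison, and the comparisons share no library but take their spread from the same model. There, 1255 genes were called at 4 h against 2 h (18.4%), 668 higher (9.79%) and 587 lower (8.61%). Of the 765 genes called with the YOX1 vector 565 were called in the same direction with the control vector, 73.9% of the 765 and 45.0% of the 1255, and none in the opposite direction. Among the 765, 744 had the same sign with both vectors. Over all genes tested Pearson's r between the changes of the 2 vectors was 0.219, and 0.394 over genes averaging 10 FPKM or more, across genes, which are not independent replicates.

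**Figure D4:**
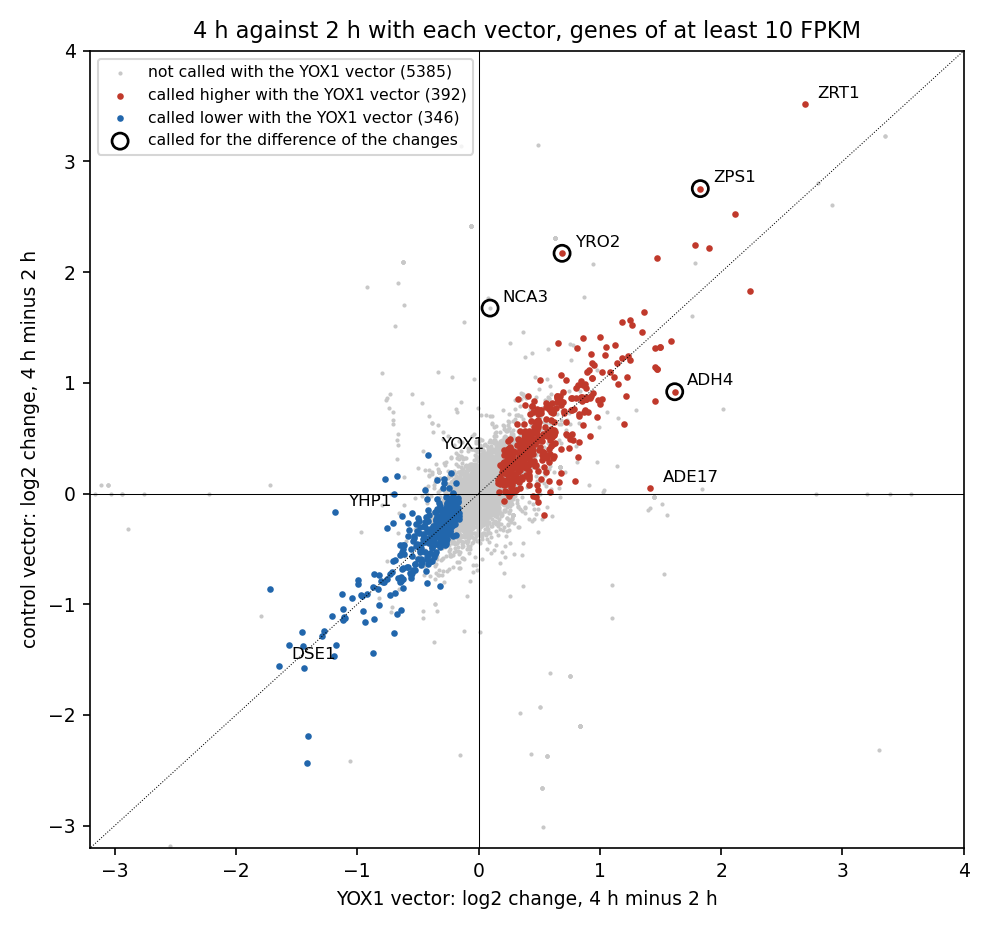
Log2 change between 4 h and 2 h with the YOX1 vector (x axis) and with the control vector (y axis) for 6123 genes averaging 10 FPKM or more, of which 20 lie outside the axes. Called genes lie near the dotted line of equal change, and the circled genes, NCA3 and YRO2 above the line and ADH4 below it, were called for the difference between the vectors, as was ZPS1.

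The change between the times was then tested for a difference between the vectors, and 6 of 6821 genes were called (0.088%), with 464 at an unadjusted p under 0.05. NCA3 (YJL116C, chromosome X, 193860 to 194873), a SUN family protein, had 26.2 and 26.7 FPKM at 4 h and 25.9 and 26.7 FPKM at 2 h with the YOX1 vector. With the control vector it had 136 and 137 FPKM at 4 h and 46.0 and 44.0 FPKM at 2 h. It was thus level between the times in YOX1 vector cells and higher late in control vector cells, and the difference of -1.58 on the log2 scale (SE 0.09, adjusted p = 0.00075, limma) was called under every alternative and with any of 8 libraries left out. YRO2 (chromosome II, 343101 to 344135), a plasma membrane protein related to Hsp30, had 36.8 and 44.9 FPKM at 4 h and 23.0 and 30.3 FPKM at 2 h with the YOX1 vector. With the control vector it had 446 and 446 FPKM at 4 h and 109 and 101 FPKM at 2 h. YRO2 was higher at 4 h with both vectors, by log2 changes of 0.69 and 2.17.

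Zinc genes differed in opposite ways. ADH4 had 71.9 and 69.5 FPKM at 4 h and 40.02 and 38.8 FPKM at 2 h with the control vector, so that its increase was larger with the YOX1 vector, by 0.70 on the log2 scale (SE 0.08). ZPS1 had 83.8 and 88.3 FPKM at 4 h and 12.7 and 12.8 FPKM at 2 h with the control vector, so that its increase was smaller with the YOX1 vector, by -0.93 (SE 0.11). The adjusted p of YRO2, ADH4 and ZPS1 was 0.0362 (limma), and when 1 of 8 libraries was left out the call was kept in 1 case for YRO2 and for ZPS1 and in 0 for ADH4. The remaining calls were tV(CAC)D and tV(CAC)H, valine transfer RNA genes with identical values, which stood at 39.95 and 28.35 FPKM at 2 h in YOX1 vector cells and were listed at 0 in the other groups, on at most 0.25 implied fragments.

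**Figure D5:**
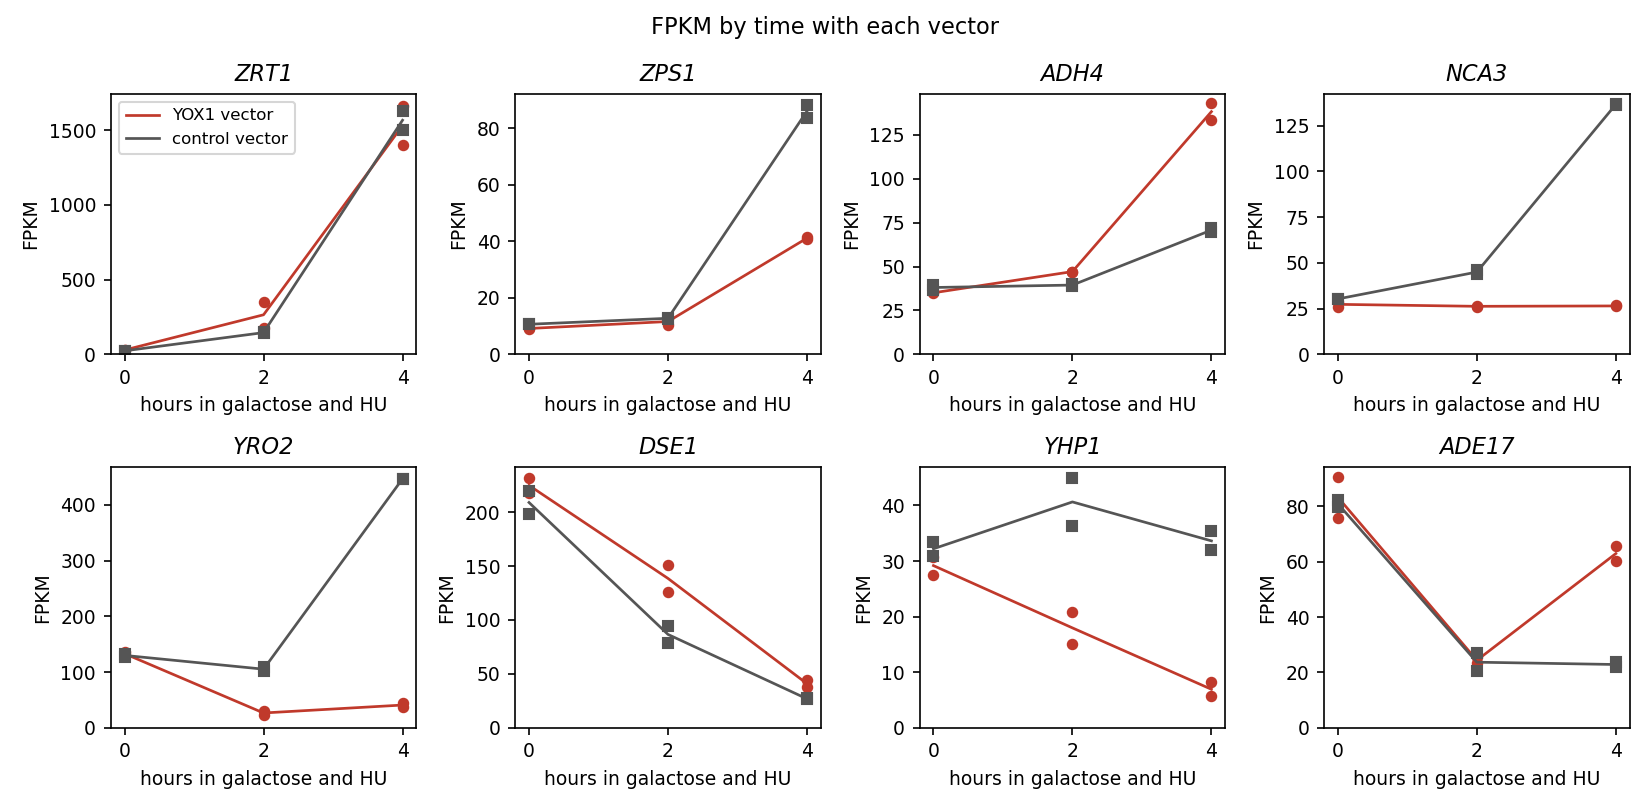
FPKM (y axis, from 0) at 0, 2 and 4 h in galactose and HU (x axis) for 8 genes, with circles for the libraries of YOX1 vector cells, squares for those of control vector cells and lines through the means. ZRT1 reaches 1398 to 1663 FPKM at 4 h with both vectors, NCA3 and YRO2 climb most on the line of the control vector, and ADE17 returns to 60.1 and 65.7 FPKM at 4 h with the YOX1 vector.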

How the data were processed

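RNA-seq was made from BY4741 cells with the YOX1 or the control vector at 0, 2 and 4 h, 2 libraries each. The authors aligned unstranded, rRNA-depleted reads to sacCer3 with TopHat2 and deposited FPKM per gene from Cufflinks and Cuffdiff. Versions and the raw counts were not used here. FPKM were scaled by median ratio, 1 was added and log2 taken, so changes of low genes are understated. limma (3.58.1, R 4.3.3; trend on, two-sided, Benjamini-Hochberg adjusted p under 0.05) was fitted over all 12 libraries with 6 group means, leaving 6 residual degrees of freedom. Depth was read from the deposited confidence intervals as implied fragments. Named genes were fixed controls, the 12 largest called changes in each direction (10 FPKM or more in the higher group, separate libraries, locus of 300 bases or more), up to 4 called genes per list, and genes called for the difference between vectors; others were chosen after their values were seen. Members and lists were chosen with earlier results of these data known. Promoter windows were the 500 bases before each start codon in the RefSeq R64 genome. The fitting code was tested on simulated data. Alternatives were pseudocounts, scaling, filters, spread, replicate block, robust estimation, fold limit and each library left out. RPL39, RPL22A, RPL43A and MET28 had means under 1 FPKM and were not tested. A gene list and its motif are not reported here.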

Additional observations from a re-analysis of the deposited data

Results flagged for a closer look

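The change between 4 h and 2 h differed between the YOX1 and control vectors, by a test of the difference itself in limma, for 6 genes. The differences on the log2 scale, YOX1 vector minus control vector, were -1.58 for NCA3 (adjusted p = 0.00075), -1.48 for YRO2, -0.93 for ZPS1 and 0.70 for ADH4 (adjusted p = 0.0362 each). For tV(CAC)D and tV(CAC)H, which share 1 set of values, the difference was -5.07 (adjusted p = 0.0362), on at most 0.25 implied fragments.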

How the results depend on the processing

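The 765 calls became 355 (226 higher, 129 lower) with a spread from the 4 compared libraries alone, 76 (45 higher, 31 lower) with a limit of 2-fold, and 271 to 332 (157 to 198 higher, 114 to 136 lower) with 1 library left out, where the lone library is assumed to vary like the others. Without scaling 797 genes were lower. The replicate numbers were not shown to pair the samples (correlation of deviations -0.0924), and the replicate block gave 615 calls, with 1 call for the difference between vectors. The call on YOX1 was lost under the block (adjusted p = 0.0586, limma). That difference also gave 1 call with a pseudocount of 0.1 and with the spread of the compared libraries, and 1 to 3 with 1 library left out. The control vector's 1255 calls became 161 with its own spread, 105 with the 2-fold limit and 596 to 892 with 1 library left out. The change of URA3 reversed without scaling (-0.069), with upper quartile scaling (-0.018) and without replicate 2 of either time, between -0.063 and 0.099 with 1 library left out. Leave-outs also reversed GAL1, between -0.12 and 0.081, and MFA1, between -0.047 and 0.77. The causes were not tested. With 2 libraries per group, small changes of weakly measured genes were not detectable.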

Other observations

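Over all genes 5.98% were called higher and 5.23% lower. Of 5 biotin genes, put together after the values were seen, 3 were called higher, with BIO5, a transporter of biotin precursors, at a log2 change of 0.92. Of 17 exporters, likewise put together afterwards, 6 were called higher and 1 lower, with a median log2 change of 0.17. Among the higher ones were TPO2 (1.18), a polyamine exporter, and PDR12 (1.04), an exporter of weak acids. NRG1, a repressor of glucose-repressed genes, had 132 and 125 FPKM at 4 h and 63.7 and 63.97 FPKM at 2 h, a log2 change of 1.08.

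Of the genes called higher by at least 2-fold 13.3% lay within 20 kb of a chromosome end, against 5.15% of all genes tested and 0% of those called lower by at least 2-fold. The genes near an end included AAD4, AAD6, AAD14, AAD15 and AAD16, which resemble each other in sequence, and ADH4. They are not independent genes, and the share is not read as a general feature of chromosome ends. The median locus was 1152 bases among genes called higher, 1569 among those called lower and 1044 over all genes tested.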
